A study of Drosophila melanogaster with 20 samples.

Results

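Brains of adult female flies kept on a high sugar diet (HSD) were set against brains of females kept on normal food (ND), with 5 RNA sequencing libraries on each diet. These 10 libraries, taken by the tissue and diet in their titles, are 10 of the series' 20, and the others are of fat body. All flies were of the wild-type strain Oregon-R, and for every library, HSD or ND, the labels give a fly age of 5 days and a feeding period of 5 days. The sugar content of either food, the number of brains per library and the meaning of the replicate numbers were not given in the sources used here. Of 13973 gene symbols that named 1 entry each, the 8911 with a mean level of at least 1 RPKM (read number scaled to transcript length and to sequencing depth) over the 10 libraries were tested.

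The fly brain takes part in sugar balance as sensor, source of hormones and consumer. Neurosecretory cells of the brain, the insulin-producing cells, release the insulin-like peptides Ilp2, Ilp3 and Ilp5 after feeding, and the corpora cardiaca, a gland attached to the gut and aorta just behind the brain, release adipokinetic hormone (Akh), which acts in the opposite way, like glucagon in mammals. Glia break down trehalose, the main blood sugar of insects, and feed neurons with the products, while neurons hold most of the peptide hormones that steer feeding, water balance and sleep. Diets rich in sugar are used in flies to model features of type 2 diabetes, and the comparison asks which brain transcripts differ after such a diet.

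No gene passed the test between diets. In limma on log2(RPKM + 1), with Benjamini-Hochberg adjustment over all genes and a threshold of 0.05, 0 of 8911 genes were called and the smallest adjusted p was 0.99992. The unadjusted p was under 0.05 for 79 genes (0.887% of those tested), a smaller share than that threshold gives on average when no gene differs. In 66 of these (0.741%) the HSD mean was the higher one and in 13 (0.146%) the lower one. With the replicate number as a block there were again 0 calls, and 121 genes (1.36%) had an unadjusted p under 0.05, with the HSD mean above in 48 (0.539%) and below in 73 (0.819%). These 121 include 43 of the 79. Without ND library 5 the count at an unadjusted p under 0.05 was 402, 372 higher and 30 lower, and leaving out each other library in turn it ranged from 43, without HSD library 3, to 114, without HSD library 2, with 0 calls each time. Limma-voom on reads recovered from the RPKM values gave 0 calls, with 75 genes above and 16 below ND by unadjusted p. The split by direction moved with scaling, to 44 higher and 20 lower after median-ratio rescaling and 36 higher and 20 lower after quantile normalization. The series text states the authors' own criterion as a p-value under 0.05 with a fold change above 1 and names no adjustment. The labels do not say that replicates came from separate flies or cultures, so the p-values measure the spread between these libraries, which may be technical.

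The differences were also small. The median absolute log2 fold change over all tested genes was 0.04, its 95th percentile was 0.20, and the median gene stood 0.02 above its ND level. For 8086 genes (90.7%) the 95% confidence interval of the diet difference lay within a 1.5-fold change in either direction, and for 8494 (95.3%) within a 2-fold change. Fold changes are on the log2(RPKM + 1) scale, so a gene of low level appears to differ by less than it does.

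The 10 libraries fell into a set of 6 and a set of 4. The first principal component of the tested genes held 64.6% of the variance and placed libraries 1 to 3 of both diets between -21.9 and -15.1 and libraries 4 and 5 between 11.9 and 39.6. Libraries 4 and 5 of both diets carried more fat body transcripts, such as those of yolk and storage proteins. They also carried more eye transcripts, though ND library 4 was only little above the highest of ND libraries 1 to 3. The summed level of 9 fat body markers was 3622 and 1729 RPKM in HSD libraries 4 and 5 and 3674 and 10249 RPKM in ND libraries 4 and 5, against 342 to 517 RPKM in HSD and 380 to 626 RPKM in ND libraries 1 to 3. The summed level of 10 eye markers was 2629 RPKM in HSD library 4 and 241 RPKM in HSD library 5, and 52.6 and 201 RPKM in ND libraries 4 and 5. In libraries 1 to 3 it was 6.91 to 11.6 RPKM in HSD and 18.9 to 45.3 RPKM in ND. All 10 eye and 8 of 9 fat body markers were above 0 in every library. Neuron and glia transcripts were found in every library. The 5 neuron markers summed to 1534 to 1823 RPKM in HSD and 1263 to 1807 RPKM in ND libraries. The 5 glia markers summed to 1345 to 1759 RPKM in HSD and 1402 to 1878 RPKM in ND libraries. In libraries 4 and 5 of both diets the fat body sum was above the neuron sum. The neuron and glia sums of the fat body libraries were not set beside these. ND library 5 had the lowest neuron sum, the highest glia sum and the highest fat body sum. Gene lists, and most of the genes described, are therefore given for libraries 1 to 3 alone as well. Mapped reads, as implied by the RPKM steps, ranged from 22.6 to 46.3 M (megareads) in HSD and 21.7 to 37.7 M in ND libraries, and 3 reads on a 1 kb gene correspond to 0.0648 to 0.138 RPKM, counting error only.

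**Figure D1:**
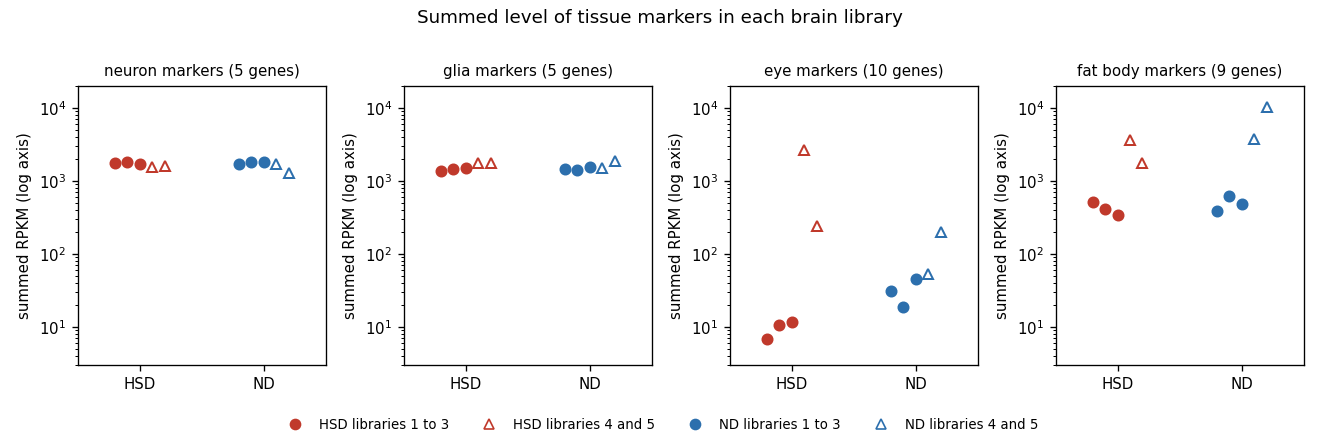
Summed RPKM (log axis) of 5 neuron, 5 glia, 10 eye and 9 fat body markers in each brain library, with HSD and ND side by side. Filled circles are libraries 1 to 3 and open triangles libraries 4 and 5. Neuron and glia sums lie between 1263 and 1878 RPKM in all 10 libraries, while the fat body sums of libraries 4 and 5 (1729 to 10249 RPKM) lie above those of libraries 1 to 3 (342 to 626 RPKM).

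In libraries 1 to 3 alone, 0 of 8911 genes passed either (limma, Benjamini-Hochberg, smallest adjusted p 0.713), and 307 (3.45%) reached an unadjusted p under 0.05, of which 145 (1.63%) had the higher and 162 (1.82%) the lower mean in HSD brains. The 3.45% is again a smaller share than a threshold of 0.05 gives on average when no gene differs. The HSD mean was the higher one in 55.4% of all genes there. Limma-voom gave 0 calls and 281 such genes. The split by direction turned with single libraries, at 288 higher and 111 lower when ND library 1 was left out and 338 higher and 151 lower when HSD library 2 was. Leaving out HSD library 3 gave 73 higher and 178 lower, and leaving out HSD library 1 gave 206 genes in all. Here 96.7% of genes had a 95% interval within a 1.5-fold change and 99.1% within a 2-fold change. Of all tested genes, 4580 of 8911 genes (51.4%) had the same sign in libraries 1 to 3 and in libraries 4 and 5, and of the 307 genes 161 (52.4%) did. Of the 79 genes of the 10-library comparison, 30 (38.0%) were also among the 307. A test of the diet by library set interaction, added after the data were seen, called 0 of 8911 genes (limma, Benjamini-Hochberg), with 242 (2.72%) at an unadjusted p under 0.05.

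In 14 of 8911 genes (0.157%) all 5 HSD libraries lay to one side of all 5 ND libraries, 13 higher (0.146%) and 1 lower (0.0112%). These shifts were narrow. Within libraries 1 to 3 alone, 705 genes (7.91%) were separated. Random assignment of libraries to diets would on average separate a larger share of genes in both cases, with 5 or with 3 libraries per diet. Separation alone therefore does not show a diet difference. CG3812 (Agpat1), which encodes an acyltransferase of phospholipid and triglyceride synthesis, had the smallest p. Its level was 22.6, 22.7, 24.1, 23.2 and 22.6 RPKM in HSD libraries 1 to 5 and 21.0, 20.5, 21.0, 20.2 and 18.2 RPKM in ND libraries 1 to 5. Every HSD library was above every ND library, ND library 5 was the lowest of all, and the log2 fold change was 0.18 ± 0.05 (SE) with an unadjusted limma p of 0.00254. The first 3 libraries of each diet gave 0.14 ± 0.05.

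Of the other separated genes, MAN1, a protein of the inner nuclear membrane, stood at 17.5 ± 0.345 RPKM in HSD and 15.8 ± 0.764 RPKM in ND brains (SD, n = 5 each). Its HSD libraries lay between 17.2 and 18.1 RPKM and its ND libraries between 15.0 and 16.7 RPKM, with a log2 fold change of 0.14 ± 0.04, and 0.13 ± 0.05 within libraries 1 to 3. The histone H3 lysine methyltransferase gene egg stood at 14.5, 13.3, 13.8, 13.7 and 14.6 RPKM in HSD and 12.6, 12.5, 12.9, 12.7 and 13.1 RPKM in ND libraries, again without overlap, with a log2 fold change of 0.12 ± 0.04, and 0.12 ± 0.05 within libraries 1 to 3. The chromatin protein gene msl-3, known for its part in dosage compensation in males, stood at 12.8 ± 0.273 RPKM in HSD and 11.8 ± 0.407 RPKM in ND brains (SD, n = 5 each), with a log2 fold change of 0.12 ± 0.04, and 0.11 ± 0.05 within libraries 1 to 3. The splicing factor gene Slu7, the cohesin subunit gene SA and the chromatin gene mip130 were separated by as little, with log2 fold changes of 0.12, 0.12 and 0.10. All 3 had an adjusted limma p of 0.99992, and they are named after their values were seen, as is CG42241 below. The 1 gene separated downwards was CG42241 (Pde8), a cyclic nucleotide phosphodiesterase, at 1.30 ± 0.132 RPKM in HSD and 1.65 ± 0.184 RPKM in ND brains (SD, n = 5 each). CG3542 (Prp40), a splicing factor gene, and CG33785 and CG33786, whose deposited values are identical, followed among the higher genes with overlapping groups and log2 fold changes of 0.16 and 0.23.

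**Figure D2:**
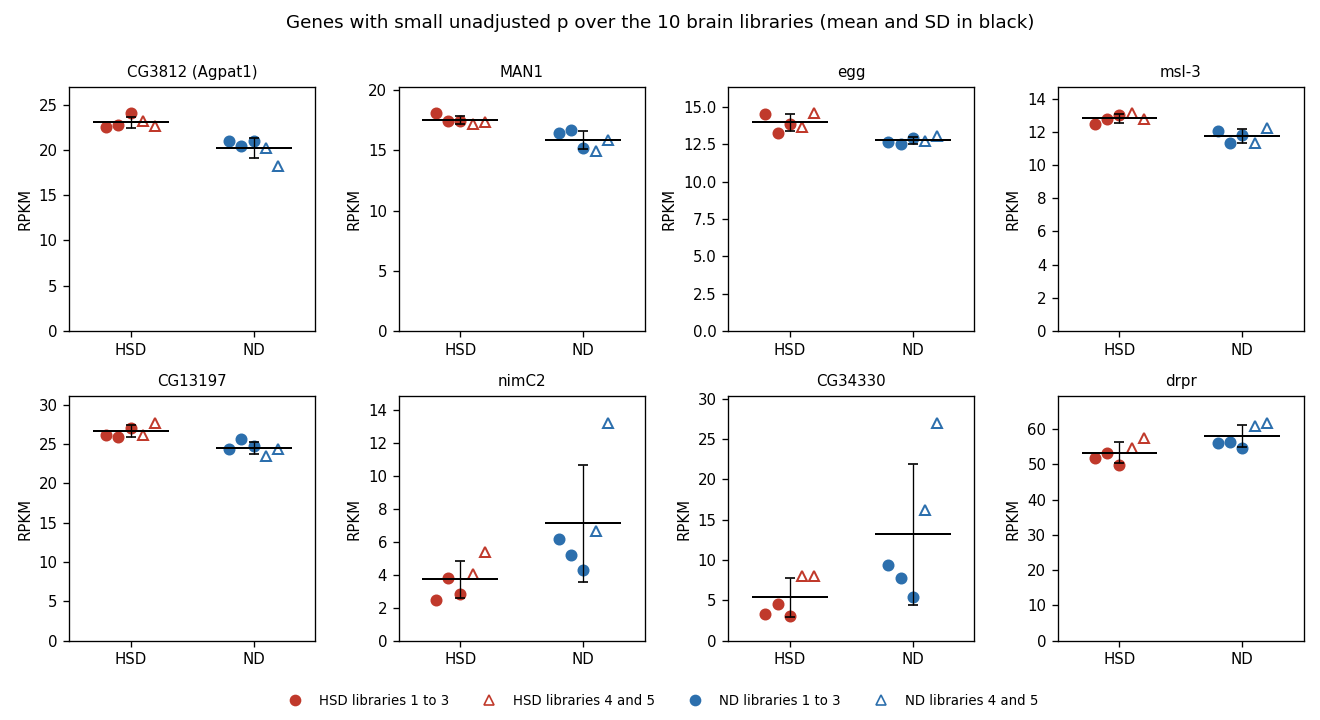
RPKM of 8 genes picked from those with a small unadjusted p over the 10 libraries, with HSD beside ND. Each library is a point, and the mean and SD are in black. Other genes with as small a p, such as CG3542 and CG7442, whose groups overlap, are not drawn. In CG3812, MAN1, egg, msl-3 and CG13197 every HSD library is above every ND library, while in nimC2, CG34330 and drpr the HSD mean is lower and the groups overlap.

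Among genes with lower means in HSD brains and a mean of at least 5 RPKM, snmRNA:400 had the smallest unadjusted limma p (0.0136). Its log2 fold change was -0.51. CG17086, zfh1, CG16743 and CG32698 also had a smaller p than drpr, with log2 fold changes of -0.24, -0.14, -0.21 and -0.12. nimC2, CG34330 and drpr, described here, were ranks 2, 4 and 8 of that order. nimC2 is of the Nimrod family of phagocytic receptors of blood cells. It stood at 2.49, 3.80, 2.85, 4.05 and 5.42 RPKM in HSD and 6.15, 5.22, 4.30, 6.69 and 13.3 RPKM in ND libraries. The groups overlapped only between HSD library 5 and ND libraries 2 and 3, and the log2 fold change was -0.73 ± 0.26, and -0.62 ± 0.15 within libraries 1 to 3. The summed level of 4 blood cell markers, Hml, NimC1, eater and Pxn, was 72.5 to 82.8 RPKM in HSD and 75.4 to 130.0 RPKM in ND libraries, with the highest values in ND libraries 4 and 5. All 4 had a lower mean over 10 libraries, and 2 of 4 within libraries 1 to 3. The part of blood cells in the nimC2 difference was not tested. drpr, the engulfment receptor by which glia clear neuronal debris, stood at 53.3 ± 2.93 RPKM in HSD and 58.0 ± 3.17 RPKM in ND brains (SD, n = 5 each), a log2 fold change of -0.12 ± 0.05, and -0.11 ± 0.04 within libraries 1 to 3. CG34330, for which no function is given here, stood at 3.33, 4.48, 3.07, 8.004 and 7.95 RPKM in HSD and 9.42, 7.79, 5.35, 16.2 and 27.0 RPKM in ND libraries. The HSD value was the lower one at each replicate number, with a log2 fold change of -1.03 ± 0.40, and -0.86 ± 0.18 within libraries 1 to 3, where the groups did not overlap. None of these genes passed after adjustment (limma, Benjamini-Hochberg adjusted p of 0.99992 for each), and leaving out each of libraries 1 to 3 in turn, the adjusted p of CG34330 within that set ranged from 0.415 to 1.

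Of the insulin-like peptides, Ilp2, Ilp3 and Ilp5 all had lower means in HSD brains, without passing the test. Ilp2 stood at 339, 276, 301, 326 and 341 RPKM in HSD and 421, 309, 333, 335 and 529 RPKM in ND libraries. ND libraries 1 and 5 lay above all HSD libraries and the other ND libraries lay within the HSD range, while at each replicate number the HSD value was the lower one. The log2 fold change was -0.26 ± 0.14 (unadjusted limma p 0.0984), -0.21 ± 0.12 within libraries 1 to 3 and -0.14 ± 0.10 without ND library 5. With the replicate block the unadjusted limma p was 0.0289 and the adjusted p 0.99976. Ilp5 stood at 83.7, 67.8, 64.5, 53.2 and 61.8 RPKM in HSD and 96.3, 66.4, 73.7, 73.6 and 190.4 RPKM in ND libraries. Its log2 fold change of -0.49 ± 0.26 was -0.23 ± 0.14 without ND library 5 and -0.12 ± 0.14 within libraries 1 to 3. Ilp3 stood at 36.0 ± 2.52 RPKM in HSD and 44.7 ± 16.2 RPKM in ND brains (SD, n = 5 each), with a log2 fold change of -0.24 ± 0.21, and -0.05 ± 0.20 within libraries 1 to 3. In bulk tissue, fewer insulin-producing cells among the cells harvested and less transcript per cell cannot be told apart. The spread of Ilp3 and Ilp5 was wider over ND than over HSD libraries, and ND library 5 held the highest value of each.

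**Figure D3:**
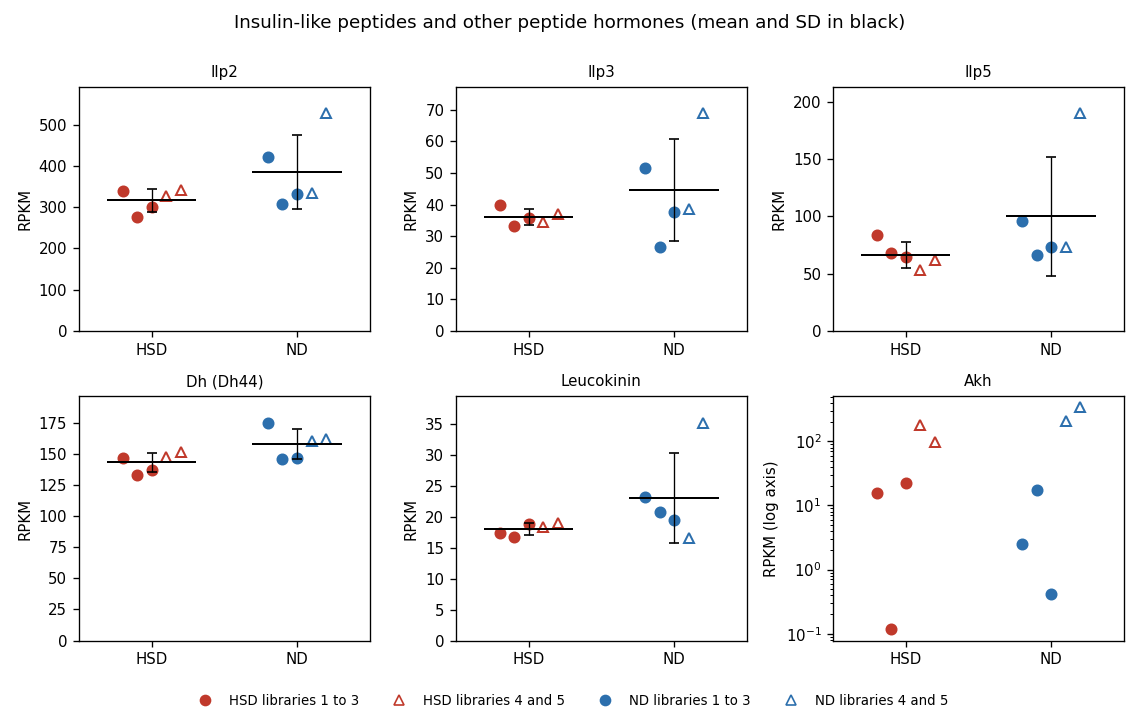
RPKM of Ilp2, Ilp3, Ilp5, Dh (Dh44), Leucokinin and, on a log axis, Akh in each brain library, HSD beside ND, with the mean and SD in black in the linear panels. ND library 5 is the highest library for Ilp2 (529 RPKM), Ilp3, Ilp5 and Leucokinin, and Akh is at 96.3 RPKM or more in libraries 4 and 5 and at 22.5 RPKM or less in libraries 1 to 3.

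Leucokinin, a diuretic peptide of a few brain neurons that also acts on feeding, stood at 17.4, 16.8, 18.8, 18.3 and 19.0 RPKM in HSD and 23.3, 20.9, 19.5, 16.5 and 35.3 RPKM in ND libraries. Within libraries 1 to 3 every HSD value was below every ND value, with a log2 fold change of -0.25 ± 0.07 (unadjusted limma p 0.00982, adjusted p rounding to 1), while ND library 4 was the lowest library of all 10. The diuretic hormone gene listed as Dh (Dh44 in later annotation), a peptide related to corticotropin-releasing factor, stood at 147, 133, 137, 148 and 151 RPKM in HSD and 175, 146, 147, 160.2 and 162 RPKM in ND libraries. The groups overlapped, 3 of 5 HSD libraries lay above the lowest ND library, and the log2 fold change was -0.14 ± 0.06 (unadjusted limma p 0.0573), and -0.16 ± 0.08 within libraries 1 to 3. The HSD value was the lower one at each replicate number, and with the replicate block the unadjusted limma p was 0.0292 and the adjusted p 0.99976. Over the 36 insulin-like peptide and neuropeptide genes tested, 21 had a higher and 15 a lower mean, 0 had an unadjusted p under 0.05, and the median log2 fold change was 0.01, against 0.02 for all genes. The counts were again 21 and 15 within libraries 1 to 3, and leaving out single libraries there moved the number lower between 10, without ND library 1, and 22, without HSD library 3. Pdf, npf, sNPF and Tk, peptides of clock neurons, feeding and gut to brain signals, had log2 fold changes of 0.01, 0.02, 0.02 and 0.04. The 25 receptors of such hormones tested lay between -0.07 and 0.11, 19 with a higher and 6 with a lower mean, while 18 were lower without ND library 5, 13 after median-ratio rescaling and 15 within libraries 1 to 3.

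Akh varied widely. It stood at 15.8, 0.116, 22.5, 179 and 96.3 RPKM in HSD and at 2.49, 17.7, 0.419, 205 and 338 RPKM in ND libraries. All 4 libraries numbered 4 or 5 were above the 6 numbered 1 to 3, on both diets. Akh is made in the corpora cardiaca, which lie outside the brain. The 95% interval of its diet difference, from -3.90 to 4.0 on the log2 scale, left a change of either direction undetectable.

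Sugar sensing, insulin signalling and sugar use showed no gene at an unadjusted p under 0.05 over 10 libraries. The 12 sugar sensing genes, with the sugar-responsive transcription factor Mio (the fly Mondo) among them, had 5 higher and 7 lower means, with a median log2 fold change of -0.0016, and 4 higher and 8 lower means within libraries 1 to 3. The median was 0.04 without ND library 5. Mio itself stood at 25.4 ± 1.70 RPKM in HSD and 25.9 ± 1.97 RPKM in ND brains (SD, n = 5 each), with a 95% interval of -0.17 to 0.12 for the log2 fold change. The 23 genes of insulin and TOR (target of rapamycin) signalling had a median of 0.01, with 16 higher and 7 lower means, while 14 were lower after median-ratio rescaling or without ND library 5, and 15 within libraries 1 to 3. The insulin receptor gene InR stood at 7.15 ± 0.717 RPKM in HSD and 6.97 ± 1.15 RPKM in ND brains (SD, n = 5 each), with a 95% interval of -0.19 to 0.27. Thor (4E-BP), a translation repressor that the transcription factor foxo activates when insulin signalling is low, was lower in all 3 HSD libraries of the first set. Its level was 7.22, 7.56, 6.45, 44.5 and 20.9 RPKM in HSD and 8.04, 8.16, 9.60, 15.6 and 38.5 RPKM in ND libraries. The log2 fold change was -0.25 ± 0.09 within libraries 1 to 3 (unadjusted limma p 0.0211) and -0.03 ± 0.58 over all 10, where libraries 4 and 5 were higher on both diets.

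The 13 glycolysis genes lay between -0.07 and 0.08, around a median of -0.0024, with 7 of 13 lower. None was lower without ND library 5 (median 0.07), 12 were without HSD library 4 (median -0.03), and 8 were within libraries 1 to 3. The hexokinase gene Hex-A stood at 152, 162, 169, 185 and 166 RPKM in HSD and 164, 158, 150.2, 159 and 157 RPKM in ND libraries, which overlapped. The glucose transporter gene Glut1 stood at 64.8 ± 14.0 RPKM in HSD and 68.3 ± 11.6 RPKM in ND brains (SD, n = 5 each). Treh, the trehalase that splits trehalose into glucose, stood at 261, 261, 271, 332 and 349.8 RPKM in HSD and 315, 278, 298, 275 and 259.6 RPKM in ND libraries. It was lower in HSD libraries 1 to 3 without overlap, at a log2 fold change of -0.16 ± 0.06 (unadjusted limma p 0.0183), and higher in HSD libraries 4 and 5, at 0.35, so that over 10 libraries the value was 0.04 ± 0.10. All 8 pentose phosphate and NADPH genes had lower means over 10 libraries, with a median of -0.16. That median was -0.03 within libraries 1 to 3 and 0.07 without ND library 5, which held the highest level of the fat body markers. Pgd, the phosphogluconate dehydrogenase gene, had a log2 fold change of -0.17 ± 0.06 within libraries 1 to 3, where its HSD values of 9.38, 8.72 and 9.04 RPKM were below the ND values of 10.7, 9.94 and 10.3 RPKM.

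Lists of fat metabolism differed as little. The 11 genes of fatty acid synthesis and storage had a median of -0.04 and the 12 genes of fatty acid release and oxidation one of -0.06, with 0 genes at an unadjusted p under 0.05. Without ND library 5 the medians were 0.06 and 0.07, and without HSD library 4 both were -0.13. A lower mean was found in 6 of 11 and 7 of 12 genes within libraries 1 to 3. The 28 respiration and citrate cycle genes had a median of 0.03 and lay between -0.04 and 0.07, with 8 of 28 lower both over 10 libraries and within libraries 1 to 3. None was lower without ND library 5, and within libraries 1 to 3 the number lower was 2 without ND library 1 and 23 without HSD library 3.

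Among cytosolic ribosomal protein genes, 81 of 83 had a lower mean in HSD brains, in a table where 61.3% of genes had a higher one. The shift was small, with a median log2 fold change of -0.05 over 10 libraries and -0.06 within libraries 1 to 3, where 73 of 83 were lower. None of the 83 had an unadjusted p under 0.05 over 10 libraries. The direction rested on single libraries. Without ND library 5, 2 of 83 were lower and the median was 0.10, and within libraries 1 to 3 the number lower ranged from 48, without ND library 1, to 82, without HSD library 3. RpL22, named after its values were seen, stood at 466, 493, 437, 562 and 646 RPKM in HSD and 579, 602, 522, 482 and 492 RPKM in ND libraries, lower in HSD libraries 1 to 3 and higher in HSD libraries 4 and 5 than in their ND counterparts. CG8801 (Non1), a nucleolar GTPase gene of ribosome assembly, had the like order, with a log2 fold change of -0.31 ± 0.07 within libraries 1 to 3 and 0.36 within libraries 4 and 5.

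Transcripts of neuronal function differed little. Of the 22 synaptic vesicle genes, 18 had a higher mean, with a median of 0.04, and without ND library 5, whose neuron marker sum of 1263 RPKM was the lowest, 15 were lower and the median was -0.03. In libraries 1 to 3 alone, 4 of 22 were lower with a median of 0.02, and 13 were without ND library 1. Of the 21 genes of transmitter synthesis and transport, 18 had a higher mean, with a median of 0.06, and 1 had an unadjusted p under 0.05. Over all genes, 61.3% had a higher mean and 0.741% had such a p with a higher mean. The list median was 0.01, with 7 of 21 lower, without ND library 5. It was likewise 0.01, with 9 of 21 lower, within libraries 1 to 3. The 1 gene was CG1732 (Gat), the GABA transporter of astrocyte-like glia, at 199.6, 207, 215, 210.3 and 223 RPKM in HSD and 192, 197, 182, 214 and 171 RPKM in ND libraries. Within libraries 1 to 3 each HSD value was above each ND value, as it was for Eaat1, the glutamate transporter of glia, and for 3 other members, Cha, VGAT and DAT. These 5 of 21 compare with 4.23% of all genes so separated upwards in libraries 1 to 3. Since this list too was chosen with earlier results of these data known, that share is no test of it. Eaat1 stood at 302, 303, 314, 317 and 322 RPKM in HSD and 288, 283, 283, 286 and 358 RPKM in ND libraries, with a log2 fold change of 0.10 ± 0.04 within libraries 1 to 3 (unadjusted limma p 0.0401). The summed glia markers, Eaat1 among them, stood at 1345 to 1503 RPKM in HSD and 1402 to 1525 RPKM in ND libraries 1 to 3, and their part in these differences was not tested.

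The 26 ion channel and receptor genes had a median of -0.02, with 18 lower. Without ND library 5 it was -0.14, with 22 lower, and without HSD library 4 it was 0.04, with 4 lower, while 13 of 26 were lower within libraries 1 to 3. The 12 clock genes had a median of 0.02, with per at 0.08 and tim at 0.01, and 4 were lower, against 5 within libraries 1 to 3. All 8 activity-regulated genes, whose transcription follows neuronal firing, had lower means, with a median of -0.06, and 7 of 8 had within libraries 1 to 3. Without ND library 5, 5 of 8 were lower, and within libraries 1 to 3 the number was 4 without ND library 1. Hr38, the orphan nuclear receptor used as a marker of recent neuronal activity, led them at 16.3, 23.2, 19.2, 13.5 and 13.4 RPKM in HSD and 22.6, 22.8, 26.7, 24.1 and 13.3 RPKM in ND libraries. The groups overlapped through HSD library 2 and ND library 5, and the log2 fold change was -0.33 ± 0.20 (unadjusted limma p 0.124), and -0.29 ± 0.12 within libraries 1 to 3.

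**Figure D4:**
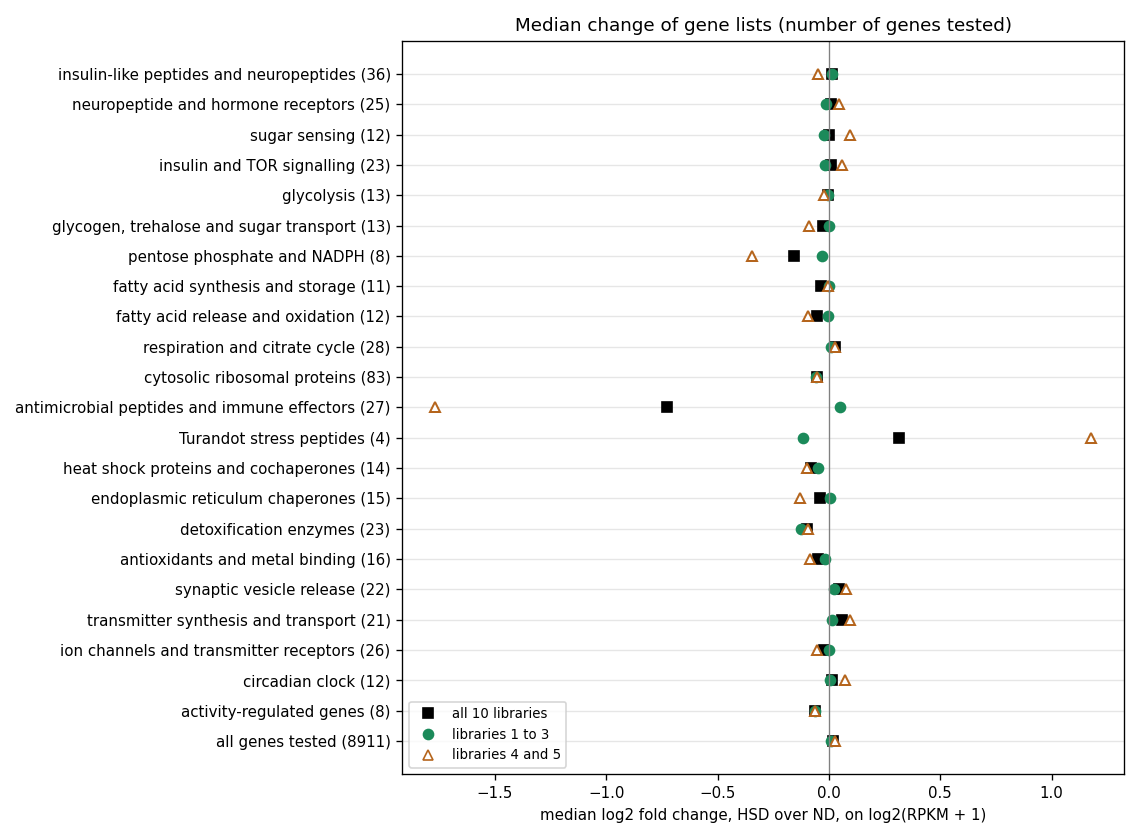
Median log2 fold change, HSD over ND, of 22 gene lists and of all genes tested, for all 10 libraries (squares), libraries 1 to 3 (circles) and libraries 4 and 5 (triangles). The number of genes tested stands beside each list. Except for the antimicrobial peptides and immune effectors, the Turandot peptides and the pentose phosphate list, the medians lie between -0.13 and 0.10.

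The antimicrobial peptides and immune effectors, made in fat body, blood cells and glia, stood out in the 10-library comparison through libraries 4 and 5. All 27 tested had a lower mean in HSD brains, with a median of -0.73, where 61.3% of all genes had a higher one. Of the 27, 1 had an unadjusted p under 0.05, against 0.146% of all genes with such a p and a lower mean. Within libraries 1 to 3, 16 had a higher and 11 a lower mean and the median was 0.05, while in libraries 4 and 5 it was -1.77. Of the 27, 3 were lower without HSD library 3 and 26 without HSD library 1 within libraries 1 to 3. The cecropin gene CecC stood at 6.62, 4.70, 3.22, 3.06 and 4.32 RPKM in HSD and 3.35, 3.97, 5.54, 18.2 and 28.3 RPKM in ND libraries, so that ND libraries 4 and 5 were above all others. PGRP-LB, an amidase that degrades bacterial peptidoglycan and damps the immune response, was the 1 gene, at 3.81, 2.49, 2.16, 4.33 and 3.13 RPKM in HSD and 3.91, 3.65, 3.68, 6.83 and 7.76 RPKM in ND libraries. Its log2 fold change was -0.53 ± 0.22, and -0.34 ± 0.15 within libraries 1 to 3. The fat body sum was 3622 and 1729 RPKM in HSD libraries 4 and 5 and 3674 and 10249 RPKM in ND libraries 4 and 5, and its part in the difference was not tested. The 4 Turandot stress peptide genes tested had the other order, all with a higher mean in HSD brains and a median of 0.31. That median was 1.18 in libraries 4 and 5, -0.12 within libraries 1 to 3, where 1 of 4 was higher, and -0.24 without HSD library 4.

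Of 23 detoxification enzymes, 17 had a lower mean in HSD libraries 1 to 3, with a median of -0.13, where 55.4% of all genes had a higher mean. All 3 with an unadjusted p under 0.05 were lower, against 1.82% of all genes. In 7 of the 23 all HSD values lay below all ND values there, against 3.68% of all genes. The list was chosen with earlier results of these data known, and its members share the same libraries. These shares are therefore no test of the list. Cyp6w1, a cytochrome P450 gene, stood at 23.7, 27.9, 25.6, 32.6 and 29.0 RPKM in HSD and 33.1, 28.9, 33.0, 26.6 and 40.4 RPKM in ND libraries, with a log2 fold change of -0.29 ± 0.07 within libraries 1 to 3 (unadjusted limma p 0.00452). GstD1, a glutathione transferase gene of the response to oxidants, stood at 62.7, 67.6, 69.6, 108 and 93.5 RPKM in HSD and 81.2, 71.6, 97.2, 87.4 and 191 RPKM in ND libraries, with -0.31 ± 0.10. Leaving out each library of the set in turn, 17 to 21 of the 23 were lower and the median ranged from -0.13 to -0.09. Over 10 libraries the median was -0.10, and 0.09 without ND library 5. The 14 heat shock and 15 endoplasmic reticulum chaperone genes had medians of -0.08 and -0.04, and -0.05 and 0.0028 within libraries 1 to 3. The endoplasmic reticulum chaperone median was 0.04 without ND library 5.

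Among the genes named here, the widest differences within libraries 1 to 3 were in photoreceptor genes. Rh2, the opsin of the ocelli, the simple eyes on top of the head, stood at 0.591, 2.17, 1.69, 474 and 154 RPKM in HSD and 19.4, 7.52, 25.7, 25.7 and 64.1 RPKM in ND libraries. All 3 HSD libraries of the first set lay below, and both of the second set above, every ND library. Within libraries 1 to 3 the log2 fold change was -2.81 ± 0.41 with an adjusted limma p of 0.713, and 0.0325 without ND library 2, where it was the 1 gene called. Arr2, an arrestin that ends the light response, stood at 0.753, 2.91 and 1.69 RPKM in HSD and 15.2, 6.27 and 25.2 RPKM in ND libraries 1 to 3, a log2 fold change of -2.46 ± 0.45. Arr1, the second arrestin, followed at -1.75 ± 0.29. ninaE, the main opsin of the compound eye, stood at 1.37, 0.996 and 3.74 RPKM in HSD and 1.33, 3.28 and 1.13 RPKM in ND libraries 1 to 3, which overlapped. In libraries 4 and 5 the order of Rh2 turned, at a log2 fold change of 2.70, and the diet by library set interaction of Rh2 had an unadjusted limma p of 0.000156 and an adjusted p of 0.712. Of the 10 eye markers, 5 had an unadjusted p under 0.05 in libraries 1 to 3, all lower in HSD, against 1.82% of all genes. The markers were chosen with earlier results of these data known, so that share is no test of them. How much of the ocelli or retina each library held was not tested apart from these transcripts.

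**Figure D5:**
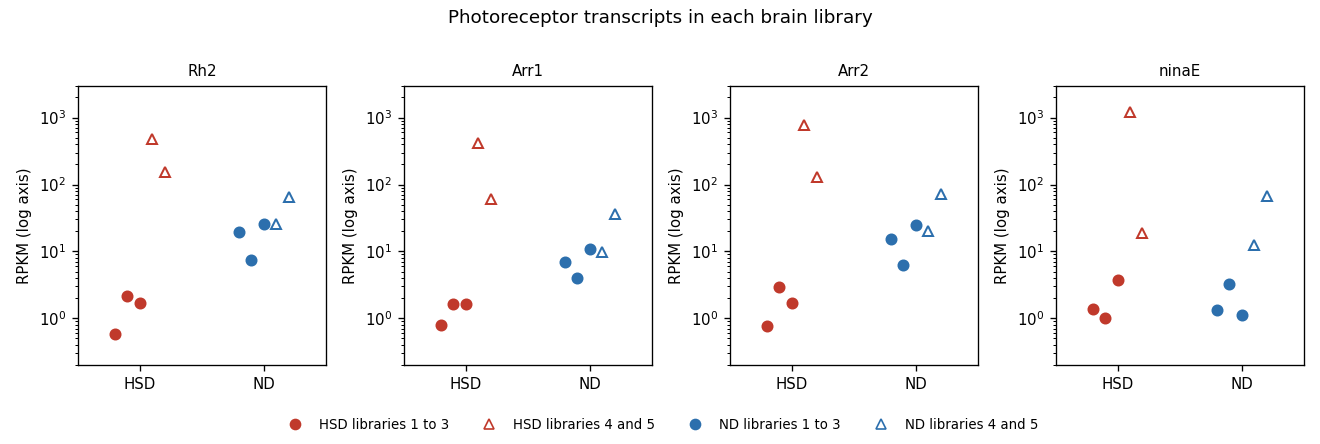
RPKM (log axis) of Rh2, Arr1, Arr2 and ninaE in each brain library, HSD beside ND, with libraries 1 to 3 as filled circles and 4 and 5 as open triangles. For Rh2, Arr1 and Arr2 the HSD libraries 1 to 3 lie below, and the HSD libraries 4 and 5 above, all ND libraries, while ninaE in libraries 1 to 3 overlaps between diets.

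Of the other genes named from libraries 1 to 3, CG18139 (Hmx), a homeobox gene, had a higher mean. It stood at 7.07, 6.13 and 6.81 RPKM in HSD and 4.59, 4.01 and 4.80 RPKM in ND libraries 1 to 3, a log2 fold change of 0.49 ± 0.09 with an adjusted limma p of 0.713. In libraries 4 and 5 it stood at 5.25 and 4.74 RPKM in HSD and 5.90 and 4.44 RPKM in ND brains, a log2 fold change of -0.03. CG8021 (SLIRP2), related to an RNA-binding protein of mitochondria, stood at 6.76, 6.47, 6.26, 8.05 and 6.48 RPKM in HSD and 5.39, 5.01, 5.21, 4.79 and 7.47 RPKM in ND libraries, with 0.27 ± 0.07. Only ND library 5 reached the HSD range. The C-type lectin gene lectin-28C had a lower mean, at 10.7, 11.7 and 8.46 RPKM in HSD and 16.9, 15.5 and 16.5 RPKM in ND libraries 1 to 3, a log2 fold change of -0.63 ± 0.10. aay, the phosphatase gene of serine synthesis, stood at 60.8, 62.3 and 58.9 RPKM in HSD and 71.5, 69.1 and 69.9 RPKM in ND libraries 1 to 3, with -0.21 ± 0.04. The adjusted limma p of these genes was 0.713 for lectin-28C, 0.994 for aay and rounded to 1 for CG8021.

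The diet difference in brain was also set against that in the 10 fat body libraries. In limma over all 20 libraries, 0 of 9280 genes passed the diet by tissue interaction (Benjamini-Hochberg). An unadjusted p under 0.05 was found for 598 (6.44%), against 1011 with the replicate block and 227 after median-ratio rescaling. Of the 598, the diet difference was higher in brain for 63 and lower for 535, and the median over all genes was -0.16. After median-ratio rescaling these were 107, 120 and -0.01, so most of that excess moved with the scaling. Leaving out each library in turn gave 390, without HSD brain library 2, to 1017, without HSD fat body library 5. ImpL2, a secreted protein that binds insulin-like peptides, stood at 24.5, 19.5, 28.02, 49.3 and 34.4 RPKM in HSD and 22.7, 21.7, 23.1, 42.1 and 74.7 RPKM in ND brains. Without rescaling, its log2 fold change was -0.13 ± 0.36 in brain and 1.03 ± 0.19 in fat body, with an unadjusted interaction p of 0.0132 in limma. That difference did not pass after Benjamini-Hochberg adjustment (adjusted p 0.772). The sign in brain rested on ND library 5, since the log2 fold change of ImpL2 in brain was 0.16 ± 0.27 without it. Within libraries 1 to 3 of the brain it was 0.08.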

How the data were processed

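RNA of 20 libraries was sequenced, and the 10 brain libraries were analysed, with fat body used for the diet by tissue interaction. The authors deposited 1 table of RPKM values per library, made from uniquely mapped reads of poly(A) RNA per the series' design text. TopHat and the dm3 build are named in the submitters' processing notes, with no version. Each table held 15080 entries, of which 1107 shared 188 symbols and were left out. RPKM steps gave whole reads for 100% of values above 0 (within 0.01 of a read), and no pair of brain tables was identical. Diets were compared on log2(RPKM + 1) with limma 3.58.1 (R 4.3.3, trended variance) and Benjamini-Hochberg adjustment, after a filter at a mean of 1 RPKM. The procedure was tested on simulated data, which lacked the split into library sets, and no result here rests on that test. Alternatives were another pseudocount, other filters, rescaling, limma-voom on recovered reads, a library set covariate, the replicate block and leaving out each library.

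Replicate numbers were shared by both diets, but no source of the pairing is stated. Deviations of same-numbered libraries from their diet means correlated at 0.442, 0.576, 0.547, 0.300 and 0.655. On this basis the numbers were treated as pairs in the blocked comparison. The best-correlated ND library was number 1, 3, 1, 5 and 5 for HSD libraries 1 to 5. In turn the best HSD library was number 2, 2, 2, 5 and 5 for ND libraries 1 to 5. Since libraries 1 to 3 and libraries 4 and 5 formed sets on both diets, positive correlations do not show that the numbers mark pairs. The unblocked comparison is the one reported first.

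The members and the 31 gene lists (538 of 543 entries found) were chosen with earlier results of these data known. Genes named were up to 10 per direction over 10 libraries and up to 8 within libraries 1 to 3 by unadjusted p with a mean of at least 5 RPKM, up to 3 per list by unadjusted p, and a fixed set. CG42241, Slu7, SA, mip130, RpL22, CecC, ninaE, Pdf, per, tim, Cha and VGAT fall outside this rule and were chosen after their values were seen. One gene list member is not reported here.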

Additional observations from a re-analysis of the deposited data

Results flagged for a closer look

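Among 106 groups of 5 libraries, 21 held a library far from the other 4 by Dixon's criterion. Chance gives about 1 in 20 for independent groups of normally spread values. These groups were of genes described here and of marker sums, and they share the same libraries. That rate is therefore no yardstick for the count. Of the 21, 5 were HSD and 16 ND groups. ND library 5 was the highest in 13 and HSD library 4 in 4. In HSD, library 4 held 411 RPKM of Arr1, 771 RPKM of Arr2, 8.05 RPKM of CG8021 and 2629 RPKM of the eye markers, and library 1 held 6.52 RPKM of the cecropin gene CecA2, against 0.124 to 1.82 RPKM in the other 4.

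In ND, library 5 was the lowest for CG3812 (18.2 RPKM), Glut1 (48.1 RPKM) and the neuron marker sum (1263 RPKM). It was the highest for nimC2 (13.3 RPKM), Ilp5 (190.4 RPKM), Eaat1 (358 RPKM), Thor (38.5 RPKM), Arr1 (36.1 RPKM), Arr2 (72.8 RPKM) and CG8021 (7.47 RPKM). It was also the highest for aay (143 RPKM), the ribosomal protein gene RpL32 (701 RPKM), the storage protein gene Lsp2 (463 RPKM) and GstD1 (191 RPKM). The eye and glia marker sums of that library were 201 and 1878 RPKM.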

How the results depend on the processing

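The count of genes passing limma with Benjamini-Hochberg adjustment was 0 over the 10 libraries and for the diet by tissue interaction under every alternative run. Within libraries 1 to 3 it ranged from 0 to 1 when each library was left out, the 1 gene being Rh2 without ND library 2. With the replicate block it was 0 in each comparison, and the counts at an unadjusted p under 0.05 were 121 over 10 libraries, 341 within libraries 1 to 3 and 1011 for the interaction. Without the filter on low values 336 of 13973 genes had an unadjusted p under 0.05 over 10 libraries, and 188 of 8911 with library set as a covariate. Of 28 list medians, 16 changed sign without ND library 5 and 5 kept it in all 21 alternatives. Of 141 named genes, 78 kept their sign in every alternative and 23 changed it without ND library 5. The causes were not tested. Differences under the 3-read level of a gene are not detectable at these depths.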
